A study of Mus musculus with 8 samples.

Results

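Prostaglandins are lipid messengers made from arachidonic acid, which phospholipases release from membranes. The cyclooxygenases COX-1 (gene Ptgs1) and COX-2 (gene Ptgs2) convert it to the intermediate PGH2, and terminal synthases turn PGH2 into the separate prostaglandins. The enzyme 15-hydroxyprostaglandin dehydrogenase (gene Hpgd) inactivates PGE2 and related prostaglandins, and G protein-coupled receptors pass the signal on. In the intestine, PGE2 from mesenchymal cells acts on the neighbouring epithelium and takes part in its repair.

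The genes described here are 9 members of this system among the 53801 genes in the table. They comprise 5 genes of synthesis (Ptgs1, Ptgs2, Ptges, Ptgis and Ptgds), 1 of breakdown (Hpgd) and 3 of receptors (Ptger3, Ptger4 and Ptgfr). The rows were selected by gene name, and the list was chosen with measured differences between the PDGFRα+ and PDGFRα- cells already known. For that reason the differences of these 9 genes between the groups are a description. They are given without printed p-values. Their calls and counts of calls, in any fit, are likewise a description and support no further statement. A gene is called where its adjusted p, over all genes tested, was under 0.05. Of the 9, 8 passed the filter on low counts and Ptgds did not.

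RNA was sequenced from stromal cells sorted out of the small intestine of LTβRfloxPDGFRα/YFP mice, in 4 PDGFRα- and 4 PDGFRα+ libraries. Cells of both groups were YFP+, CD45- and CD31-, and both groups came from the floxed line. The sources used here do not say what drives YFP, whether the floxed gene was deleted in these cells, how old the mice were, or whether each library came from its own mouse, so the spread between libraries may be partly technical. Total counts ran from 12.9 to 35.1 in units of 1e+06. Levels are CPM, counts per 1e+06 of the library size after TMM scaling, with mean ± SD over n = 4 libraries per group. Where 4 values are listed for a group, they stand in the order of its libraries, from 1 to 4.

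The fibroblast collagen gene Col1a1 stood at 24445 to 53118 CPM in the 8 libraries, while the leukocyte gene Ptprc (CD45) was at 0.804 to 24.5 CPM and the endothelial gene Pecam1 (CD31) at 4.63 to 132 CPM. RNA of the sorting marker, Pdgfra, ran from 475 to 749.9 CPM in PDGFRα- and from 497 to 656 CPM in PDGFRα+ libraries. These ranges overlap, so the RNA of the marker does not tell the groups apart, and the group names are those of the labels. In bulk RNA, fewer cells of a type and less RNA per cell cannot be told apart.

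The windows around the annotated starts of Ptgs1, Ptgs2 and Hpgd are shown because these genes had the 3 most distinct patterns, 1 higher in PDGFRα+ cells, 1 tied to the replicate number and 1 lower. Each runs 5′ to 3′ on the gene's strand from 250 bases before to 50 bases after the RefSeq start (GRCm38.p6), at chr2:36230176-36230475 (+), chr1:150099781-150100080 (+) and chr8:56294302-56294601 (+). Capitals mark matches, on either strand, to the TATA box (TATAAA), the CAAT box (CCAAT), the GC box (GGGCGG), the short cAMP response element or CRE (CGTCA), the AP-1 element (TGANTCA) and the E box (CACGTG). The RefSeq start of Hpgd lies upstream of the GENCODE start given further on.
Ptgs1: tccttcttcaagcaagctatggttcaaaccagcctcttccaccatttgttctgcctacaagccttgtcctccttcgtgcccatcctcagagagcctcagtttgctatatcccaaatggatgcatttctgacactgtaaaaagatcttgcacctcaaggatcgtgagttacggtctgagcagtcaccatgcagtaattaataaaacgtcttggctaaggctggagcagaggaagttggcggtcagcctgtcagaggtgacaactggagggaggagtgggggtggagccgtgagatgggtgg
Ptgs2: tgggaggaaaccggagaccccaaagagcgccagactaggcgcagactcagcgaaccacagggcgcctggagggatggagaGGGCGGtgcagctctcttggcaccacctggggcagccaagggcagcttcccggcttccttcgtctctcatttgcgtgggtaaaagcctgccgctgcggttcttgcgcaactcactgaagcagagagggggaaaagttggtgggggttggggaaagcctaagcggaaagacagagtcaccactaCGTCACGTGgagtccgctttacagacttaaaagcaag
Hpgd: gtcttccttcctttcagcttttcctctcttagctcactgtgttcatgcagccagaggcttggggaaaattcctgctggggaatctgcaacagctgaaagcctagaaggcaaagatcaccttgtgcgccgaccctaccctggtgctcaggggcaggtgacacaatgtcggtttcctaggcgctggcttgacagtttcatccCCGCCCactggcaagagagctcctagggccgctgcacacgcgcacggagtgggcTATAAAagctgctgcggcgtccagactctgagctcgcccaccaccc

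The Ptgs1 window, with a GC content of 50.7%, held none of the 6 motifs. The Ptgs2 window (59.3% GC) held a GC box 170 bases upstream of the start, and a short CRE from base 14 of the transcript that shares its last 2 bases with an E box. The Hpgd window (58% GC) held a GC box on the reverse strand 50 bases upstream and a TATA box from base 5 of the RefSeq transcript. Among 32817 windows of the same length, 13.6% held the TATA box, 35.6% the GC box, 20.8% the short CRE, 7.15% the E box, 37.4% the CAAT box and 7.81% the AP-1 element. A match to letters is not a binding site, and windows were available for 8 of the 9 members.

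Among the synthesis genes, Ptgs1 was higher in PDGFRα+ cells by the widest margin. Ptgs1 (ENSMUSG00000047250, chromosome 2, 36230426 to 36252272, GRCm38) encodes COX-1, the cyclooxygenase that many tissues make continuously. It stood at 16.0, 13.9, 13.6 and 13.01 CPM in PDGFRα- cells, against 41.6, 84.4, 39.3 and 41.0 CPM in PDGFRα+ cells. The groups did not overlap, and PDGFRα+ library 2 was well above the other PDGFRα+ libraries. The means were 14.1 ± 1.30 and 51.6 ± 21.9 CPM, 3.65-fold apart (log2 fold change 1.87 ± 0.27 SE, 95% interval 1.29 to 2.44). Without PDGFRα+ library 2 the log2 fold change was 1.52, and Ptgs1 was still called. Without PDGFRα- library 3 it was 1.85 and was not called. Exons of Ptgs1 share 148 of 3884 bases with Gm43621 on the other strand.

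Ptgs2 (ENSMUSG00000032487, chromosome 1, 150100031 to 150108227) encodes the inducible COX-2. It stood at 155, 148, 152 and 274 CPM in PDGFRα- cells, against 190.4, 182, 221 and 397 CPM in PDGFRα+ cells. The groups overlapped, since PDGFRα- library 4 was above 3 PDGFRα+ libraries, yet within each of the 4 replicate numbers the PDGFRα+ library was the higher one. With group alone its log2 fold change was 0.44 ± 0.28 (SE, 95% interval -0.16 to 1.05), and a block for the replicate number gave 0.42 ± 0.12 (SE, 95% interval 0.17 to 0.67). Without PDGFRα+ library 4 it was 0.12, and without PDGFRα- library 4 it was 0.71, in the fit with group alone.

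The other synthases had overlapping groups. Ptges, the inducible synthase of PGE2, stood at 45.5, 35.2, 28.1 and 32.4 CPM in PDGFRα- cells, against 55.7, 51.6, 40.2 and 30.2 CPM in PDGFRα+ cells. The groups overlapped, with PDGFRα+ libraries higher in 3 of 4 numbers, and the log2 fold change was 0.33 ± 0.23 (SE, 95% interval -0.17 to 0.83). Ptgis, the prostacyclin synthase gene, stood at 37.9, 40.6, 41.5 and 20.5 CPM in PDGFRα- cells, against 37.0, 34.2, 28.3 and 29.6 CPM in PDGFRα+ cells. The groups overlapped here too, PDGFRα- library 4 was the lowest of the 8, and the log2 fold change was -0.12 ± 0.24 (SE, 95% interval -0.64 to 0.40). Exons of Ptgis share 6.08% of their bases with a gene on the other strand.

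Ptgds, the gene of the lipocalin-type PGD2 synthase, had 0 counts in 7 libraries and 2 counts, 0.149 CPM, in PDGFRα+ library 4. A count of 0 allows up to 3 counts, or 0.086 to 0.234 CPM by library, for counting error alone. No exon of Ptgds overlaps another gene. The table also lists 5 of 13 protein-coding mitochondrial genes at 0 in every library, while the mitochondrial gene mt-Co1 had at least 12314 counts in each, so a listed 0 is not read here as absence of the RNA.

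Hpgd, the breakdown gene, went the other way. Hpgd (ENSMUSG00000031613, chromosome 8, 56294585 to 56321043) stood at 207, 239.9, 283 and 278 CPM in PDGFRα- cells, against 122, 104, 130.3 and 177 CPM in PDGFRα+ cells. The groups did not overlap, and every PDGFRα+ library was lower than the PDGFRα- library of its number. The means were 252 ± 35.6 and 133 ± 31.1 CPM, and PDGFRα+ cells were 1.89-fold lower (log2 fold change -0.92 ± 0.18 SE, 95% interval -1.31 to -0.53). With the block the log2 fold change was -0.94 ± 0.13 (SE). In edgeR with the filter on low counts, Hpgd was called with the block and not with group alone. With group alone it was called by DESeq2, by limma-voom, by edgeR without that filter, and by edgeR without PDGFRα+ library 4 (log2 fold change -1.08).

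**Figure D1:**
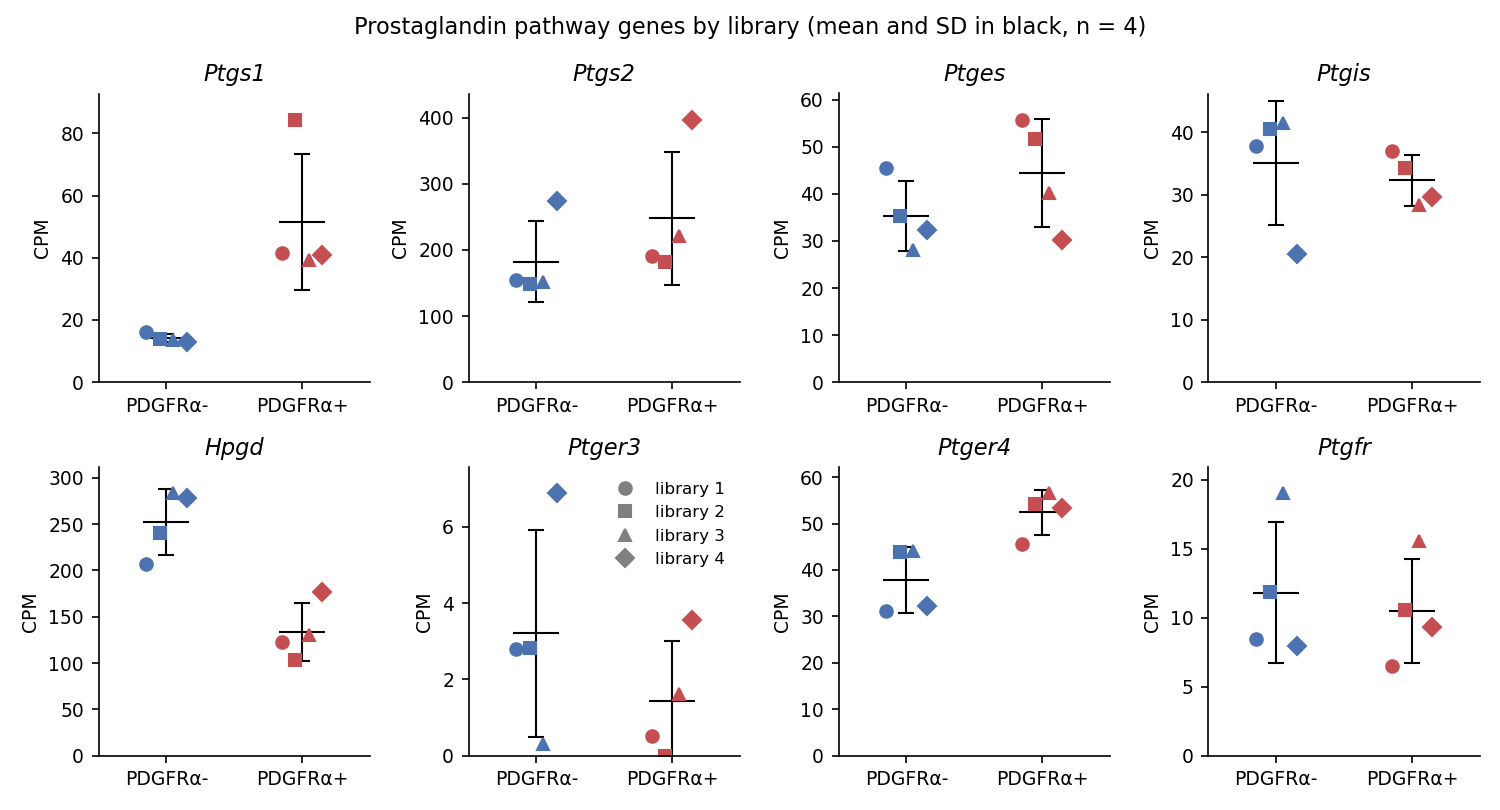
CPM of the 8 tested members in each library, with PDGFRα- in blue, PDGFRα+ in red, the library number as the marker shape, and the group mean and SD in black (n = 4). Ptgs1, Hpgd and Ptger4 have groups that do not overlap, and Ptgs2 is highest in library 4 of both groups.

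The receptor genes showed a difference of small size or none that could be measured. Ptger4 encodes EP4, a PGE2 receptor that raises cAMP. It stood at 31.1, 43.8, 44.0 and 32.3 CPM in PDGFRα- cells, against 45.5, 54.3, 56.5 and 53.3 CPM in PDGFRα+ cells. The lowest PDGFRα+ library lay just above the highest PDGFRα- library, and the log2 fold change was 0.47 ± 0.19 (SE, 95% interval 0.06 to 0.89), which was not called in either fit. Exons of Ptger4 share 16.5% of their bases with Ttc33 and Gm15937 on the other strand.

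Ptgfr encodes FP, the receptor of PGF2α. Its values were 8.43, 11.9, 19.0 and 7.94 CPM in PDGFRα- cells, against 6.48, 10.5, 15.6 and 9.36 CPM in PDGFRα+ cells. The groups overlapped almost fully, library 3 was the highest in both, and the log2 fold change was -0.17 ± 0.38 (SE, 95% interval -0.99 to 0.66). Ptger3 encodes EP3, a PGE2 receptor that lowers cAMP. It had 69, 56, 4 and 137 counts in PDGFRα- cells, against 18, 0, 50 and 48 counts in PDGFRα+ cells. The difference could not be measured well, with overlapping groups and a 95% interval of the log2 fold change from -3.78 to 1.41.

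In the fit with group alone, 1 member was called higher (Ptgs1), against 0.192% of all 15643 genes tested, and 0 lower, against 0.0511% (edgeR). At an unadjusted p under 0.05 there were 2 higher, against 3.73% of all genes, and 1 lower, against 3.22%. With group alone, 1 member was higher and 1 lower by each of 3 other rules. The shares of all genes called higher and lower were 0.899% and 0.669% by DESeq2, 0.217% and 0.0703% by limma-voom, and 0.571% and 0.376% by edgeR without the filter on low counts. The authors' deposited comparison includes the replicate number as a term, so the fit with that block is given beside it. With the block, 1 was higher (Ptgs1), against 1.34% of all genes, and 1 lower (Hpgd), against 0.933%. The authors' deposited table called 2 higher (Ptgs1 and Ptgs2), against 2.3% of the genes it gives an adjusted p, and 1 lower (Hpgd), against 2.52%. The groups did not overlap for 3 of the 8 tested members, against 5.05% of all genes tested. As the members were chosen with this contrast known, nothing is read from these shares.

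Other cells in the sort were followed through marker lists, which were also chosen with earlier results of these data known. The 6 fibroblast genes summed to 117870 to 167158 CPM in PDGFRα- and 87437 to 113023 CPM in PDGFRα+ libraries, without overlap. Of these 6, 3 were called lower with the block, against 0.933% of all genes tested, and 0 with group alone, against 0.0511%. The 3 were the collagen genes Col1a1, Col1a2 and Col3a1, which made up most of the sum. Pdgfra, Dcn and Lum had overlapping groups and were not called in either fit (log2 fold change -0.13, -0.39 and -0.41 with group alone). The 3 cell cycle genes summed to 6.16 to 13.6 CPM in PDGFRα- and 49.0 to 104 CPM in PDGFRα+ libraries. All 3 were called higher with the block, against 1.34% of all genes tested, and 1 with group alone, against 0.192%. Tuft cells are an epithelial type known to make Ptgs1. Their 5 genes summed to 148 to 213 CPM in PDGFRα- and 156 to 295 CPM in PDGFRα+ libraries, and 0 of the 3 tested were called in either edgeR fit. The unadjusted edgeR p was under 0.05 for Dclk1 in both fits and for Avil with the block. Most of that sum was Dclk1, at 109.6 to 160.02 CPM in PDGFRα- and 143 to 258 CPM in PDGFRα+ libraries, higher in the PDGFRα+ library of each number. Avil went the other way, at 25.0 to 49.2 CPM in PDGFRα- and 8.52 to 34.7 CPM in PDGFRα+ libraries. It was lower in the PDGFRα+ library of each number, with overlapping groups. Pou2f3 ran from 3.12 to 18.3 CPM in the 8 libraries, higher in the PDGFRα+ library of 2 numbers. The other 2 were near 0, with Trpm5 at 0.366 to 2.496 CPM in PDGFRα- and 0 to 0.287 CPM in PDGFRα+ libraries and Gfi1b at 0 to 0.529 CPM, and the epithelial gene Epcam was at 0 to 3.32 CPM. The 5 macrophage genes summed to 17.7 to 72.9 CPM in PDGFRα- and 11.5 to 18.5 CPM in PDGFRα+ libraries, and the 6 epithelial genes to 20.98 to 38.9 and 11.8 to 26.0 CPM, each list with overlapping groups. Summed levels of the 6 smooth muscle genes (314 to 1614 and 373 to 1271 CPM) and the 5 pericyte genes (826 to 1597 and 687 to 1240.2 CPM) also overlapped. Most of the pericyte sum was Rgs5. With the block, edgeR called 2 other pericyte genes, 1 higher and 1 lower, against 1.34% and 0.933% of all genes tested. With group alone it called 0, against 0.192% higher and 0.0511% lower. Cspg4 was higher in PDGFRα+ cells (mean 32.9 and 73.0 CPM, edgeR adjusted p = 0.113 with group alone and 0.0402 with the block). Abcc9 was lower (mean 83.9 and 34.8 CPM, edgeR adjusted p = 0.183 with group alone and 0.00527 with the block). For both genes the groups did not overlap, against 5.05% of all genes tested. The part of these cells in the values of Ptgs1 and Hpgd was not tested.

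Per kilobase of exon, the breakdown gene was the most abundant member in both groups. Hpgd stood at 149.8 ± 21.1 CPM per kilobase in PDGFRα- and 79.2 ± 18.5 in PDGFRα+ libraries, and Ptgs2 came next at 39.7 ± 13.4 and 54.1 ± 22.04. In PDGFRα- libraries, Ptgis (13.7 ± 3.86), Ptges (8.98 ± 1.89), Ptger4 (5.68 ± 1.06) and Ptgs1 (3.64 ± 0.336) followed, in CPM per kilobase. In PDGFRα+ libraries, Ptgs1 (13.3 ± 5.64), Ptgis (12.6 ± 1.58) and Ptges (11.3 ± 2.94) stood within their spread of each other, with Ptger4 (7.88 ± 0.720) below. Ptgfr was at 1.74 ± 0.755 and 1.55 ± 0.561 and Ptger3 at 0.563 ± 0.478 and 0.250 ± 0.278 CPM per kilobase in the 2 groups. Among the 5 tested enzymes, which leave out Ptgds, Ptgs1 was thus the lowest in PDGFRα- libraries, and within the spread of Ptgis and Ptges in PDGFRα+ libraries.

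**Figure D2:**
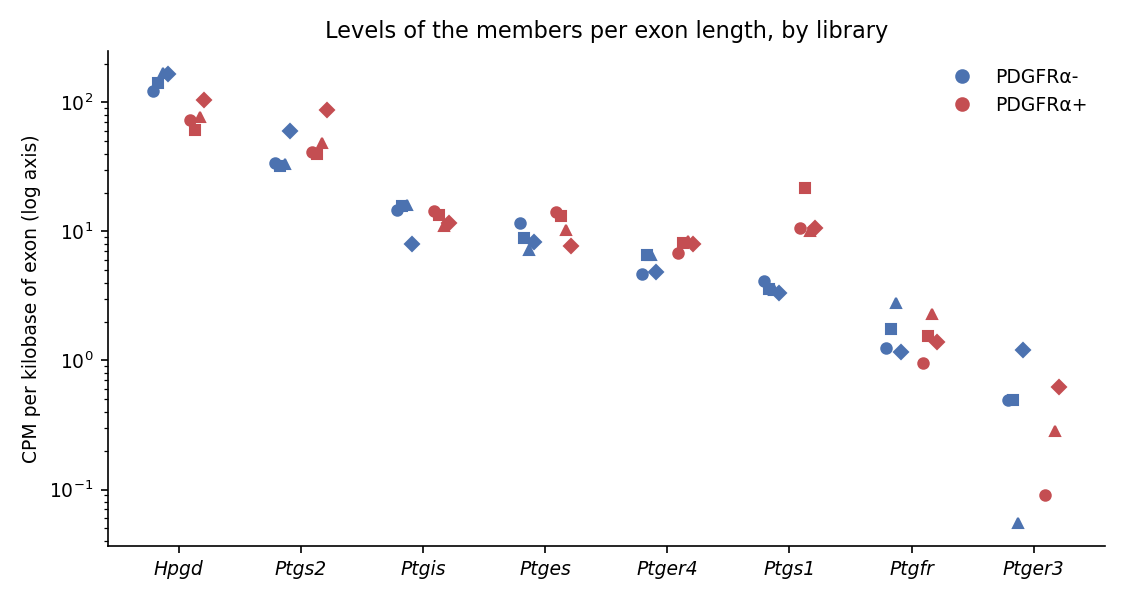
CPM per kilobase of merged exon on a log axis for the 8 tested members, ordered by their PDGFRα- mean, with 1 point per library (marker shape is the library number as in the plot of CPM). Ptger3 in PDGFRα+ library 2 is at 0 and has no point, and Ptgs1 in PDGFRα+ libraries reaches the level of Ptgis and Ptges.

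Set against Hpgd within each library, both cyclooxygenase genes were higher in PDGFRα+ cells. The ratio of Ptgs2 to Hpgd, both in CPM per kilobase, was 0.274, 0.226, 0.197 and 0.362 in PDGFRα- cells, against 0.571, 0.644, 0.624 and 0.824 in PDGFRα+ cells. The groups did not overlap, and the ratio was under 1 in every library, so Hpgd exceeded Ptgs2 throughout. The ratio of Ptgs1 to Hpgd was 0.0334, 0.0252, 0.0207 and 0.0203 in PDGFRα- cells, against 0.147, 0.353, 0.131 and 0.1005 in PDGFRα+ cells, again without overlap. The ratio of Ptgs1 to Ptgs2 was 0.122, 0.111, 0.106 and 0.0560 in PDGFRα- cells, against 0.258, 0.547, 0.209 and 0.122 in PDGFRα+ cells. It was higher in the PDGFRα+ library of each number, but PDGFRα+ library 4 reached only the level of PDGFRα- library 1. These ratios rest on the differences that chose the members and have no test. They use Hpgd alone for breakdown. The further breakdown genes Ptgr1, Zadh2 and Ptgr2 had log2 fold changes of 0.70, 0.36 and -0.07 with group alone. None of them was called in either edgeR fit.

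**Figure D3:**
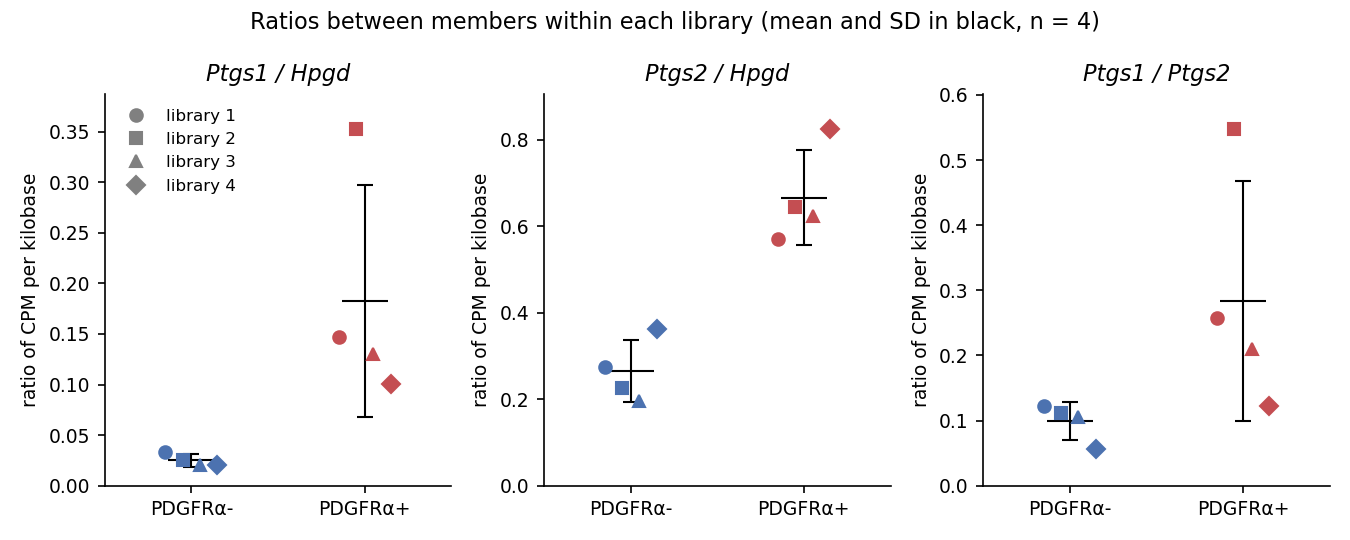
Ratios of Ptgs1 to Hpgd, Ptgs2 to Hpgd and Ptgs1 to Ptgs2 within each library, each gene in CPM per kilobase, with the group mean and SD in black (n = 4). Both ratios to Hpgd separate the groups, and library 4 has the highest Ptgs2 to Hpgd ratio in each group.

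The replicate number is a measure that did not choose the members. Ptgs2 was the 1 member of 8 called in an edgeR test of the number with group as a term (adjusted p = 0.00241), against 4.28% of all 15643 genes. The 2 libraries of number 4 were the highest of their groups. Without number 4 the adjusted p was 0.928, and over the 6 alternatives it ran from 1.05e-06 to 0.928. The labels do not say what libraries of 1 number share. The other 7 members had adjusted p values of 0.287 (Hpgd) to 0.749 (Ptger3).

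Ptgs2 is an early response gene, induced within a short time by many stimuli, and the 8 early response genes Fos, Fosb, Jun, Junb, Egr1, Atf3, Ier2 and Dusp1, which also rise when tissue is dissociated, were read beside it. Their summed level was highest in library 4 of each group, at 17375 CPM in PDGFRα- and 14217 CPM in PDGFRα+ cells, and library 4 was the highest for 7 of 8 genes in either group. Between the groups these genes ran opposite to Ptgs2. All 8 were lower in the PDGFRα+ library of every number, where Ptgs2 was higher. With the block, 4 of 8 were called lower (Fos, Jun, Junb and Dusp1), against 0.933% of all genes tested. With group alone, 0 of the 8 were called lower, against 0.0511%. Their sums were 14961, 14575, 14450 and 17375 CPM in PDGFRα- cells, against 9529.6, 6005, 11492 and 14217 CPM in PDGFRα+ cells. PDGFRα+ library 2, the lowest of these, was also the library with the highest Ptgs1 and the lowest Hpgd. The part of tissue dissociation in the levels of Ptgs2, Ptgs1 and Hpgd was not tested.

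**Figure D4:**
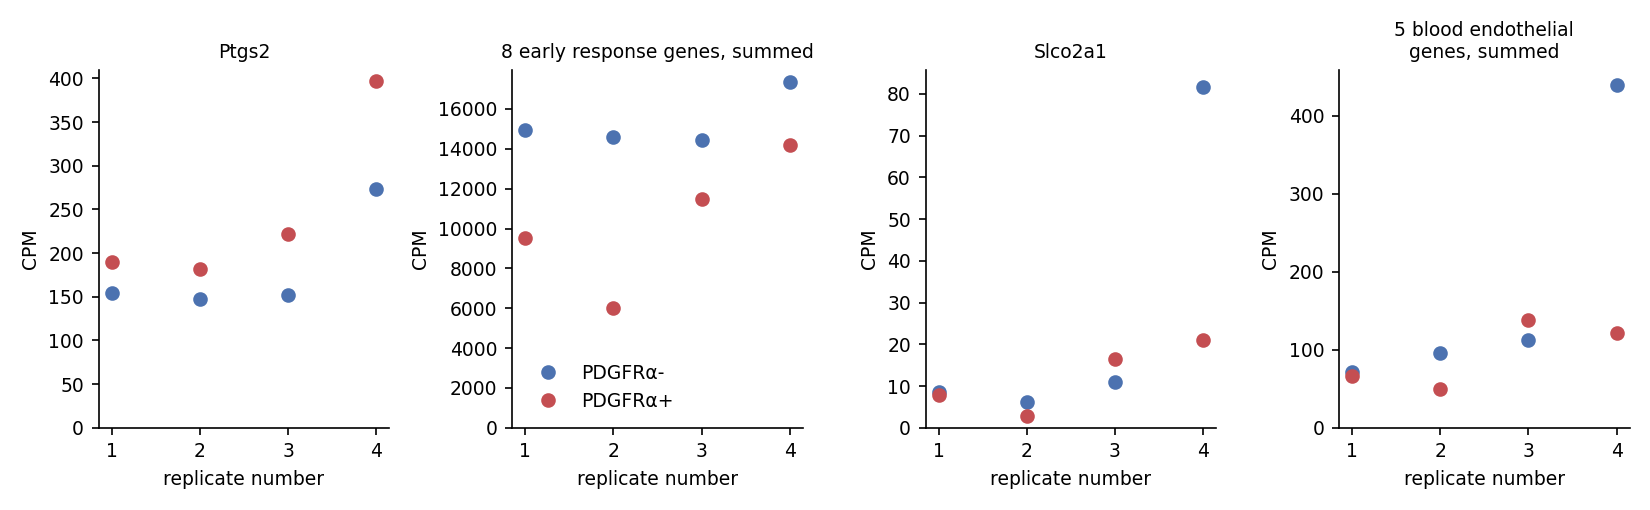
CPM by replicate number for Ptgs2, the sum of 8 early response genes, the prostaglandin transporter gene Slco2a1 and the sum of 5 blood endothelial genes, with PDGFRα- in blue and PDGFRα+ in red. Number 4 is highest in both groups for Ptgs2, the early response sum and Slco2a1, and the PDGFRα+ points lie above the PDGFRα- points for Ptgs2 and below them for the early response sum.

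Outside the 9 members, 34 further genes of the pathway and of the related leukotriene and lipoxygenase branch were looked up, and 24 passed the filter on low counts. Their median log2 fold change was 0.36, against -0.01 over all genes tested, with 15 of 24 above 0. Genes with few counts had wide intervals on both sides of 0, such as Pla2g4c (log2 fold change 1.06 ± 1.12 SE) and Hpgds (-1.79 ± 1.20 SE). No shift of the pathway is read from this median. With group alone edgeR called 1 higher and 0 lower, against 0.192% and 0.0511% of all genes tested. At an unadjusted p under 0.05 there were 4 higher and 1 lower, against 3.73% and 3.22%. DESeq2 with group alone called 2 higher and 0 lower, against 0.899% and 0.669%, and limma-voom called 1 and 0, against 0.217% and 0.0703%. With the block edgeR called 2 higher and 0 lower, against 1.34% and 0.933%, and at an unadjusted p under 0.05 there were 7 higher and 1 lower, against 5.93% and 5.73%. DESeq2 with the block called 2 higher and 1 lower (Mgll, the monoacylglycerol lipase gene), against 2.3% and 2.52%. This list too was chosen with earlier results of these data known. Its counts, and the p-values given for its genes between the groups, are therefore a description and support no further statement.

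Pla2g4a, which encodes the cytosolic phospholipase A2 that releases arachidonic acid, was higher in PDGFRα+ cells. Pla2g4a (ENSMUSG00000056220, chromosome 1, 149829618 to 149961290) stood at 56.7, 83.4, 64.1 and 51.2 CPM in PDGFRα- cells, against 123, 173, 120.6 and 126 CPM in PDGFRα+ cells. The groups did not overlap, and PDGFRα+ library 2 was the highest, as for Ptgs1. The log2 fold change was 1.09 ± 0.19 (SE, 2.13-fold, higher in 4 of 4 numbers), with an edgeR adjusted p of 0.0345 with group alone and 2.7e-04 with the block. Over 19 alternatives the adjusted p ran from 6.38e-11 to 0.136 and the log2 fold change from 0.95 to 1.24. The call was lost, with group alone, without PDGFRα- library 1 (log2 fold change 1.04), 3 (1.09) or 4 (1.00) and without PDGFRα+ library 1 (1.13), 2 (0.95) or 3 (1.14).

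Ptger2, which encodes EP2, a second PGE2 receptor that raises cAMP, was called by edgeR with the block and not with group alone. DESeq2 and edgeR without the filter on low counts called it with group alone too. Ptger2 (ENSMUSG00000037759, chromosome 14, 44988195 to 45003820) stood at 3.58, 4.73, 2.11 and 0.955 CPM in PDGFRα- cells, against 8.63, 20.7, 7.30 and 8.17 CPM in PDGFRα+ cells. The groups did not overlap, and PDGFRα+ library 2 again stood above the rest. Its log2 fold change was 1.97 ± 0.55 (SE), with an edgeR adjusted p of 0.260, with group alone, and 2.05 ± 0.48 (SE, edgeR adjusted p = 0.0348) with the block. Over 19 alternatives the adjusted p ran from 9.02e-04 to 0.776, and with the block it was 0.081, 0.144, 0.117 and 0.0897 without number 1, 2, 3 and 4. Exons of Ptger2 share 4.74% of their bases with Gm17173 and Gm49364 on the other strand.

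The remaining synthases and receptors with a mean of at least 20 CPM did not pass the threshold in either fit. Ptges3, which encodes a co-chaperone also described as a cytosolic PGE2 synthase, had a mean of 49.5 ± 6.71 and 44.7 ± 0.949 CPM (log2 fold change -0.15 ± 0.17 SE). Akr1b3, an aldo-keto reductase gene with PGF synthase activity, had a mean of 28.0 ± 14.2 and 38.1 ± 16.5 CPM (log2 fold change 0.44 ± 0.36 SE). Ptgfrn encodes a membrane protein named as a negative regulator of the FP receptor. It ran from 323 to 379 CPM in PDGFRα- and from 289 to 310.4 CPM in PDGFRα+ libraries, without overlap, yet with a log2 fold change of -0.20 ± 0.14 (SE, edgeR adjusted p = 0.902).

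**Figure D5:**
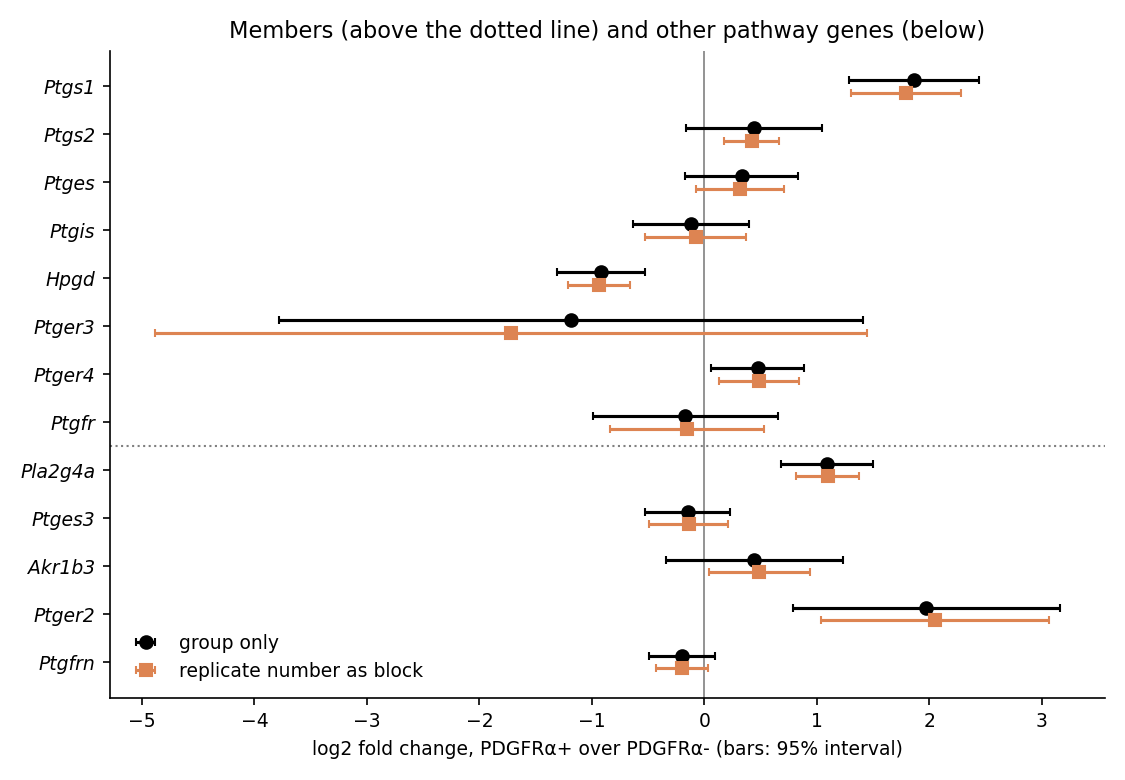
Log2 fold change of PDGFRα+ over PDGFRα- with its 95% interval from edgeR, from the fit by group (black) and that with the number as block (orange), for the 8 tested members and 5 other pathway genes. Ptgs1, Pla2g4a and Ptger2 lie to the right of 0 and Hpgd to the left in both fits, and the interval of Ptger3 is the widest.

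Of the 24 other pathway genes, 2 were called in the test of the replicate number, against 4.28% of all 15643 genes tested. Nothing is read from that count, and the 2 genes are named here after their values were seen. Slco2a1, the prostaglandin uptake transporter gene, stood at 8.47, 6.18, 10.9 and 81.7 CPM in PDGFRα- cells, against 7.85, 2.91, 16.6 and 20.9 CPM in PDGFRα+ cells (edgeR adjusted p = 0.00594). It was highest in library 4 of both groups, as Ptgs2 was. The 5 blood endothelial genes summed to 439 CPM in PDGFRα- library 4 against 72.1 to 113 CPM in the other PDGFRα- libraries, and to 122 CPM in PDGFRα+ library 4 against 49.5 to 138 CPM in the other PDGFRα+ libraries. The 4 lymphatic endothelial genes summed to 16.6, 3.07, 57.0 and 95.6 CPM in PDGFRα- cells, against 18.1, 0, 13.5 and 40.3 CPM in PDGFRα+ cells. That sum was highest in library 4 of both groups. The part of either endothelial list in the level of Slco2a1 was not tested. Akr1b3 stood at 47.7, 26.4, 24.3 and 13.8 CPM in PDGFRα- cells, against 62.8, 27.2, 31.8 and 30.7 CPM in PDGFRα+ cells (edgeR adjusted p = 0.0384), highest in library 1 of both groups.

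Genes with the most similar pattern over the 8 libraries were ranked for Ptgs1, Ptgs2 and Hpgd by Pearson's r of log2 CPM, among 6248 genes with a mean of at least 20 CPM. For Ptgs1 the first 5 were Cnn2 (r = 0.99), Col4a2 (0.98), Vstm4 (0.97), Jazf1 (0.97) and Myh9 (0.97). For Hpgd they were Angptl1 (0.97), Flrt2 (0.97), Mdfic (0.97), Angpt1 (0.96) and Chrdl1 (0.96). For Ptgs2 they were Purb (0.98), Usp6nl (0.98), Myh10 (0.96), Tmem131 (0.94) and Rbbp8 (0.93). Mean CPM of Cnn2, an actin-binding calponin gene, was 23.6 in PDGFRα- and 59.0 in PDGFRα+ libraries, and that of Angptl1, an angiopoietin-like gene, 504 and 226. All points come from the same 8 libraries, and those of Ptgs1 and Hpgd carry a difference between groups that do not overlap. The groups of Ptgs2 overlapped. High values occur for many genes, with r above 0.9 for 56, 16 and 30 genes for Ptgs1, Ptgs2 and Hpgd.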

How the data were processed

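The submitters' processing notes list DESeq2, featureCounts 2.0.1, STAR 2.7.3a and cutadapt 3.4, with GRCm38 as the build. No source used here states parameters, the strand setting or the annotation release. The labels' protocols name a stranded kit for very small inputs (SMARTer Pico), which amplifies the material. No tool for molecular identifiers is among those listed. The deposited table holds whole-number raw counts per gene and library, without normalization. It also holds the authors' log2 fold change and adjusted p-value for PDGFRα+ over PDGFRα-. Another 8 columns of per-sample values were not used.

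Groups were compared with edgeR 4.0.16 in R 4.3.3 (quasi-likelihood test, robust, TMM, filterByExpr leaving 15643 genes), a model of group only and Benjamini-Hochberg adjustment over all genes. Alternatives used other scaling, no filter, DESeq2 1.42.0, limma-voom (limma 3.58.1), the replicate number as a block, and each library or number left out. The code was tested on simulated data. Exon lengths and overlaps come from GENCODE M21. Deviations of same-numbered libraries correlated with r of 0.23, 0.18, 0.02 and 0.25 for numbers 1 to 4. Number 3 alone fell under the 0.1 required of every pair, so pairing is not established. A DESeq2 model with number and group, however, gave the authors' log2 fold change within 0.001 for 100% of 29254 genes, against 1.12% for group alone, and on that ground the block is shown. Every pair of libraries differed by far more than counting noise.

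Members and lists were chosen with earlier results of these data known. Genes named beyond the members were those of the pathway called in either fit, synthases and receptors with a mean of at least 20 CPM, and the 5 genes most like Ptgs1, Ptgs2 and Hpgd. Further genes are named only to give values beside a result. Log2 CPM for that ranking used a prior count of 2. Ccl21a had a second, unplaced row at 0, which was not used.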

Additional observations from a re-analysis of the deposited data

Results flagged for a closer look

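In 26 groups of 4 libraries, each for 1 of 13 genes, the gap of the highest or lowest library to its neighbour was set against the range of the group. It exceeded Dixon's critical value for 4 values in 6 groups, and chance gives about 1 in 20. PDGFRα+ library 2 stood apart as the highest for Ptgs1 (84.4 CPM), Pla2g4a (173 CPM) and Ptger2 (20.7 CPM). PDGFRα- library 4 stood apart as the highest for Ptgs2 (274 CPM) and as the lowest for Ptgis (20.5 CPM). PDGFRα+ library 1 stood apart as the highest for Akr1b3 (62.8 CPM).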

How the results depend on the processing

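Ptgs1 was called higher, the 1 such member, under each alternative except without PDGFRα- library 3, and DESeq2 with the replicate block added Ptgs2 (2 members). Leaving out libraries gave 0 to 1 members called higher and 0 to 1 called lower. No member was called lower with group alone (edgeR), but 1, Hpgd, was without a filter on low counts, with DESeq2, with limma-voom, and with the block in edgeR or DESeq2. In edgeR over all 8 libraries the block thus changed the calls of Hpgd and Ptger2. With the block, Hpgd was still called without each number. Ptger2 was not called with the block once any number was left out (1 other pathway gene higher in each case). Fits with group alone left out single libraries and no whole number. Other pathway genes called higher were 1 with group alone and 2 (Pla2g4a and Ptger2) without the filter, with DESeq2, and with the block in edgeR or DESeq2. They were 0 to 1 without single libraries, and 1 was called lower with DESeq2 and the block. Members called for the replicate number were 0 to 1 without single numbers, the 0 being without number 4. Limiting the other pathway genes to a mean of at least 20 CPM, chosen after seeing the data, kept 1 higher and 0 lower. The direction of Ptgs1, Ptgs2, Ptges, Hpgd, Ptger3 and Ptger4 held under all 19 alternatives, and that of Ptgis turned in 1 and of Ptgfr in 2, none of them called. The causes were not tested. Ptger3, at 0 to 137 counts, varied widely between the libraries of each group.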

Other observations

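The leukotriene and lipoxygenase branch, which also starts from arachidonic acid, was hardly seen in these cells. Of its 6 genes looked up, the 5 lipoxygenase pathway genes Alox5, Alox5ap, Alox12, Alox15 and Ltc4s did not pass the filter on low counts, and their highest value in any library was 2.86 CPM (Alox12). Lta4h, which encodes leukotriene A4 hydrolase, was measured at 41.7 ± 7.26 CPM in PDGFRα- and 53.7 ± 3.82 CPM in PDGFRα+ libraries (n = 4 each, log2 fold change 0.36 ± 0.18 SE, edgeR adjusted p = 0.774). Of the receptors outside the members, Ptgdr and Ptgdr2, which encode the PGD2 receptors, did not pass the filter either.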
